A study of Mus musculus with 6 samples.

Results

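Genes of the extracellular matrix and of cell adhesion were followed in mouse skeletal muscle after a bout of electrical pacing. Members were chosen by gene symbol alone and by no measured value: collagens, laminins, nidogens, fibulins, thrombospondins, integrins, cadherins, Mmp, Timp, Adam and Lox genes, with Fn1, Sparc, Dcn, Lum, Bgn, Fbn1, Pdgfra, Tgm2 and Postn. The symbols selected 49 genes on 60 probes, out of 3939 genes on the 6609 probes that the platform annotation links to exactly 1 symbol. Of the 49, 39 had a value on all 6 arrays, as did 3180 of the 3939 genes. The other 10 (Lama4, Fbln1, Fbln2, Fbln5, Postn, Thbs4, Itga3, Itga7, Itgb1 and Itgb1bp2) lacked a value on 1 to 3 arrays and are described on the arrays that measured them. Fn1, Fbn1, Col1a1, Col3a1 and the type IV collagens were not analysed here. The symbols also took in Itgb1bp2, which encodes melusin, a muscle protein that binds an integrin tail, and Itgbl1, Adamtsl2 and Adamtsl5, which resemble integrins or ADAMTS proteases in sequence and are not receptors or proteases themselves.

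The study used 6 arrays with 2 channels, 1 array a group. The sham mice carried an implanted pacer that was never switched on, and their muscle was taken at the time that matches 0 h. The other groups were stimulated through the implant for 3 h, and muscle was collected 0 h, 1 h, 3 h, 8 h or 24 h after the end of stimulation. Every array carried in its other channel the same reference RNA from control muscle, named Pre. The muscle, the strain, sex, age and number of the mice, and any pooling of RNA are not given in the sources used here. Values are log2 ratios to Pre, so 1 means 2-fold higher than Pre and -1 means 2-fold lower. The ratio is read as sample over Pre, which is likely because the labels call Pre the reference, although the dyes are not stated; all directions rest on that reading.

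With 1 array a group no difference has a replicate check and no p-value was computed. The differences from sham all share the sham array, and all ratios share Pre, so a deviation in either runs through every time. At 1 h and later a difference from sham also holds the time elapsed. The ratios carry no signal level, so neither the abundance of one gene against another nor the tissue label could be checked by level; the 20 skeletal muscle marker genes with a value on all arrays had median log2 ratios to Pre from -0.24 at 24 h to 0.01 at 1 h. The spread of all probes differed between arrays, with a robust standard deviation (SD) of the log2 ratios from 0.176 at 1 h to 0.495 in sham, and 87.3% to 95.2% of probes were measured. The only internal measure of error is the spread between probes of a gene. Over all genes with several probes, the median probe SD of the log2 difference from sham was between 0.280 at 1 h and 0.381 at 0 h. Of the 49 members, 40 had 1 probe and therefore no such check.

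Muscle fibres sit in a layered scaffold. A basement membrane of laminins, nidogens and network collagens wraps each fibre, and outside it fibroblasts lay down fibrillar collagens that small proteoglycans such as decorin, biglycan and lumican help to organise. Integrins tie the fibre to the basement membrane and carry force across the cell surface, metalloproteinases and ADAM proteases trim the scaffold, and TIMPs hold those proteases in check. In bulk muscle, fewer fibroblasts or vessel cells and less RNA per such cell cannot be told apart.

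As a set, the 39 members with a value on all arrays lay slightly below Pre and close to sham. The median log2 ratio to Pre was -0.18 in sham, then -0.10, -0.05, -0.15, -0.07 and -0.24 at 0, 1, 3, 8 and 24 h, whereas the median over all 3180 genes lay between -0.01 and 0.01 on every array. Members below Pre numbered 25 in sham, 26, 26, 23, 31 and 28 at 0, 1, 3, 8 and 24 h. Over all genes, 51.5% were below Pre in sham, then 49.8%, 50.4%, 49.1%, 48.7% and 48.2% at 0, 1, 3, 8 and 24 h. The sham median was thus lower than those at 0 h, 1 h, 3 h and 8 h. Against sham, the median member difference was 0.09, 0.08, 0.01, 0.05 and -0.10 at 0, 1, 3, 8 and 24 h, beside 0.04, 0.03, 0.02, 0.06 and 0.08 over all genes. Scaling the arrays to a common spread turned the 1 h and 8 h medians to -0.08 each. At 24 h, 22 of the 39 members were below sham, where 42.5% of all genes were.

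Few members were far from sham. A gene was called when its log2 difference was at least 1 in size, that is 2-fold. At 0 h 1 of 39 members was called (Mmp19, lower), where 5.97% of all genes were called. At 1 h no member was called and 1.32% of all genes were. At 3 h 2 members were called, Cdh5 higher and Pdgfra lower, beside 2.14% of all genes. At 8 h no member was called, beside 3.24%, and at 24 h 1 member was called (Tgm2, higher), beside 5.82%. These shares are small counts near the background. Against Pre, no member was 2-fold away in sham, at 0 h, at 1 h or at 8 h, where 3.33%, 2.17%, 0.849% and 2.36% of all genes were. At 3 h Pdgfra, Lum and Itgb2 were at least 2-fold below Pre, beside 2.14% of all genes lower by that much. Lum was the member that far below at 24 h, beside 1.51%. Among members not measured on all arrays, Thbs4 at 8 h, Itgb1 at 24 h and Lama4 at 24 h also passed 2-fold from sham or Pre.

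**Figure D1:**
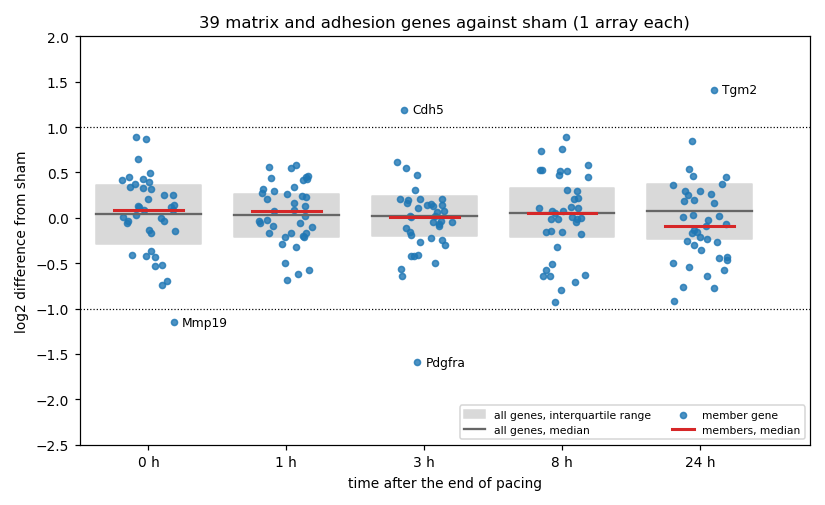
Log2 difference from sham (vertical axis) of the 39 members with a value on all 6 arrays, at each time after the end of pacing (horizontal axis, 1 array a time). Blue points are genes, red bars the member medians, grey bands and bars the interquartile range and median over all 3180 genes, and dotted lines mark 2-fold; only Mmp19, Cdh5, Pdgfra and Tgm2 lie beyond them.

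A lower threshold of 1.5-fold, chosen after the values had been seen, showed where the members spread. At 3 h, 11 of the 39 were at least 1.5-fold below Pre, among them Col5a1, Col5a2, Col15a1, Mmp14, Mmp24, Adam11, Adam17 and Adamts5, and 9.53% of all genes were. In sham 6 of 39 were, beside 10.2%, at 24 h 5 of 39, beside 6.73%, and at 8 h Sparc was the 1 member, beside 2.45%. At 0 h and 1 h no member was, beside 4.03% and 0.597%. With scaled arrays the 3 h ratios of Adam11, Adam17 and Adamts5 were -0.543, -0.480 and -0.583, short of 1.5-fold. Scaling multiplies all ratios of an array by 1 factor. Col5a1, Col5a2, Col15a1, Mmp14 and Mmp24, nearer Pre than Adamts5 at 3 h, were therefore short of it too. The scaled 3 h ratios of Itgb2, Lum and Pdgfra, also among the 11, were -0.75, -0.81 and -0.89. Of the 11, only Itgb2, Lum and Pdgfra thus stayed at least 1.5-fold below Pre with scaled arrays. The share of all genes at that threshold was not computed with scaled arrays. Against sham, 6, 2, 4, 9 and 6 of the 39 were at least 1.5-fold away in either direction at 0, 1, 3, 8 and 24 h, beside 23.6%, 11.1%, 10.8%, 17.6% and 22.1% of all genes. The 9 at 8 h were 6 lower (Adamts8, Dcn, Itga9, Mmp19, Nid1 and Pdgfra) and 3 higher (Cdh5, Tgm2 and Timp1). At 3 h the robust SD of the log2 ratios to Pre was 0.633 over members and 0.387 over all genes, and the plain SDs were 0.514 and 0.486. At 0 h the robust SDs were 0.371 and 0.259, while the plain SDs had the opposite order, 0.262 and 0.380. At 1 h the robust SDs were 0.151 and 0.153.

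**Figure D2:**
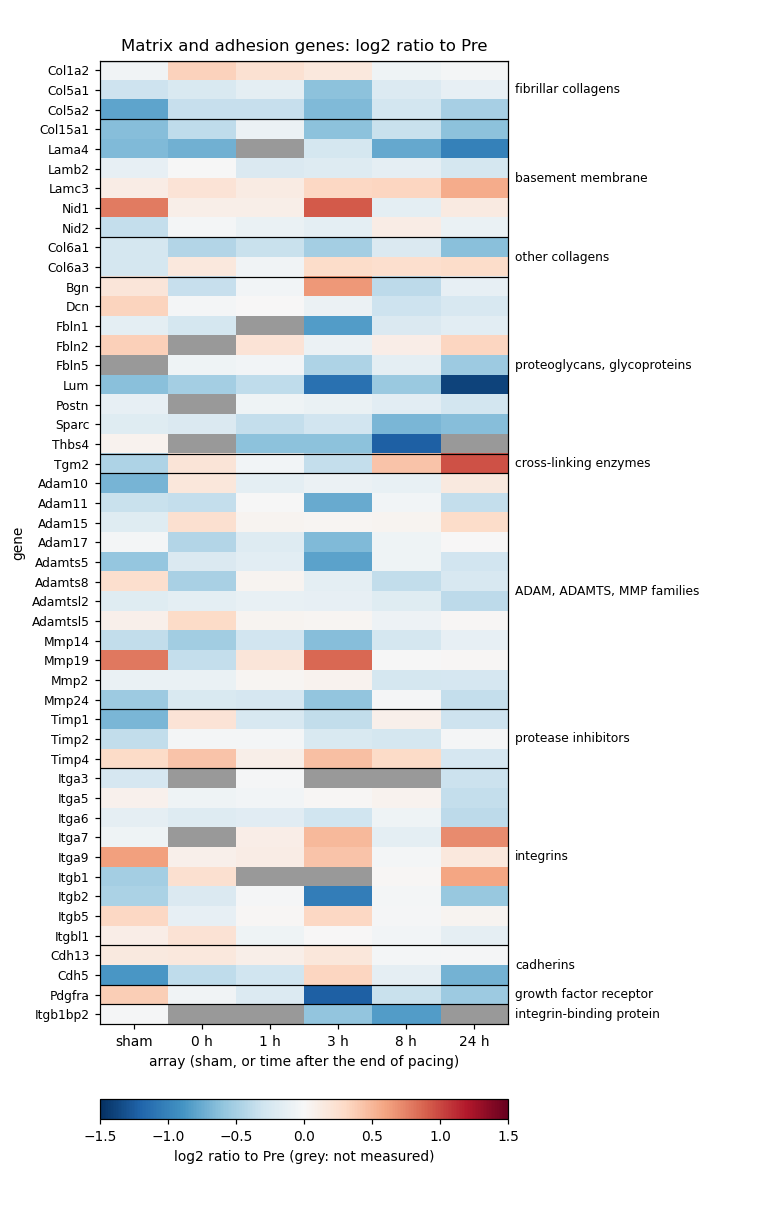
Log2 ratio to Pre of all 49 members (rows, grouped by role) on the 6 arrays (columns). Red is above Pre, blue below and grey not measured; Lum and Pdgfra at 3 h, Thbs4 at 8 h and Lum at 24 h are the darkest blue cells, and Tgm2 at 24 h is the darkest red.

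Fibrillar collagens carry the tensile strength of the tissue. Col1a2, a chain of type I collagen, had log2 ratios to Pre of -0.05 in sham, then 0.34, 0.23, 0.16, -0.06 and -0.03 at 0, 1, 3, 8 and 24 h. The 0 h value rests on 1 of its 2 probes, since the other was not measured on that array. On the probe measured throughout, the ratios were 0.27 in sham, then 0.34, 0.52, 0.44, -0.06 and -0.05 at the 5 times, so that 1 h and 3 h lay above 0 h. The other probe stood at -0.37 in sham and between -0.12 and -0.02 after pacing. The probes disagreed at 24 h, with differences from sham of -0.32 and 0.35. Col5a2, a chain of the type V collagen that starts fibril assembly, stood at -0.79 in sham and between -0.66 at 3 h and -0.27 at 8 h after pacing. Every array had it below Pre, sham most, although with scaled arrays the 1 h value was lower, at -0.62 against -0.51. Its partner chain Col5a1 stood at -0.32 in sham, -0.62 at 3 h and between -0.23 and -0.12 at the other times. None of these collagens was 2-fold from sham.

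Type VI collagen forms the beaded filaments next to the basement membrane, and its chains went apart. Col6a1 had ratios of -0.27 in sham, then -0.44, -0.33, -0.51, -0.22 and -0.63 at 0, 1, 3, 8 and 24 h, below Pre throughout. Col6a3 started at the same -0.27 in sham but stood at 0.15, -0.05, 0.28, 0.26 and 0.27 at the successive times, so that it was above sham by 0.54 at 3 h and at 24 h. Each had 1 probe.

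In the basement membrane group, Nid1, the linker between laminin and type IV collagen, had ratios of 0.78 in sham and 0.93 at 3 h but 0.08, 0.09, -0.15 and 0.14 at 0, 1, 8 and 24 h. The sham and 3 h arrays were high and the other 4 were near Pre, which gave differences from sham of -0.70, -0.69, 0.14, -0.93 and -0.65 at 0, 1, 3, 8 and 24 h. Its relative Nid2 was -0.36 in sham and between -0.15 and 0.11 after pacing. Col15a1, a collagen of the outer basement membrane, stood at -0.64 in sham, -0.61 at 3 h and -0.62 at 24 h, and at -0.38, -0.09 and -0.33 at 0 h, 1 h and 8 h. Lama4, a laminin chain of vessel walls, was below Pre on all 5 arrays that measured it, at -0.66 in sham, then -0.72, -0.26, -0.76 and -1.02 at 0, 3, 8 and 24 h. Sham lay above the 0 h, 8 h and 24 h arrays and below the 3 h array. The differences of Lama4 from sham were -0.06, 0.40, -0.10 and -0.35 at 0, 3, 8 and 24 h. Its 24 h ratio was short of 2-fold with scaled arrays, at -0.82, and with runs of probes centred, at -0.98. Lamc3 went from 0.11 in sham to 0.56 at 24 h, and Lamb2, a chain of the synaptic laminins, stayed between -0.26 and 0.00 on all arrays.

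Among the proteoglycans and secreted glycoproteins, Dcn, Sparc, Lum and Bgn had several probes, whose agreement varied between times. Dcn, decorin, which binds collagen fibrils and growth factors, had 4 probes. Its gene mean was 0.34 in sham, then -0.04, 0.01, -0.09, -0.31 and -0.24 at 0, 1, 3, 8 and 24 h. Sham was above every paced array. At 24 h the 4 probes differed from sham by -0.57, -0.58, -0.55 and -0.61, a mean of -0.58 with a probe SD of 0.03, where the median probe SD over all genes was 0.345. At 8 h the mean was -0.65 with a probe SD of 0.37, and the 4 probes ran from -1.03 to -0.15. At 0 h 1 probe was above sham, by 0.33, and the others were below.

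Sparc, a collagen-binding glycoprotein that also takes part in matrix assembly, had 2 probes. Its gene mean was -0.18 in sham, then -0.22, -0.35, -0.29, -0.69 and -0.64 at 0, 1, 3, 8 and 24 h. The last 2 times were the lowest on both probes, but with scaled arrays the 1 h value was -0.64 and the 24 h value -0.52. Against sham it differed by -0.51 at 8 h (probe SD 0.12) and -0.46 at 24 h (probe SD 0.10), 1.42-fold and 1.38-fold lower, and by -0.04 at 0 h (probe SD 0.04). Lum, lumican, another small proteoglycan of collagen fibrils, was below Pre on all 6 arrays, at -0.62 in sham, then -0.51, -0.38, -1.12, -0.55 and -1.39 at 0, 1, 3, 8 and 24 h. At 3 h and 24 h it was at least 2-fold below Pre, but at 24 h and 0 h only 1 of its 2 probes was measured, the lower one on every array that had both. On that probe alone the ratios were -0.78 in sham and -1.39 at 24 h, a difference of -0.61 in place of the -0.76 from gene means. With exact zeros kept the 24 h ratio was -0.70, and with scaled arrays the 3 h ratio was -0.81, both short of 2-fold.

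Bgn, biglycan, stood at 0.18 in sham, then -0.35, -0.04, 0.65, -0.40 and -0.12 at 0, 1, 3, 8 and 24 h. The 3 h array was the high one, and there its 2 probes were apart, at 1.14 and 0.17. At 8 h they agreed, with a difference from sham of -0.57 and a probe SD of 0.08, and at 24 h with -0.30 and 0.06. Bgn, Dcn and Sparc were thus all lower than sham at 8 h and 24 h, by 0.30 to 0.65 in log2 units, and none reached 2-fold. Of the 4 proteoglycans and glycoproteins with a value on all arrays, 3 were below sham at 8 h and 4 at 24 h. Over all genes, 44.4% and 42.5% were. The median differences of the 4 were -0.54 and -0.52. Of the group's members not measured on all arrays, Fbln1 differed from sham by -0.06 and -0.01 at these times. Fbln2 differed by -0.26 and -0.04, Postn by -0.03 and -0.15, and Thbs4 by -1.27 at 8 h.

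**Figure D3:**
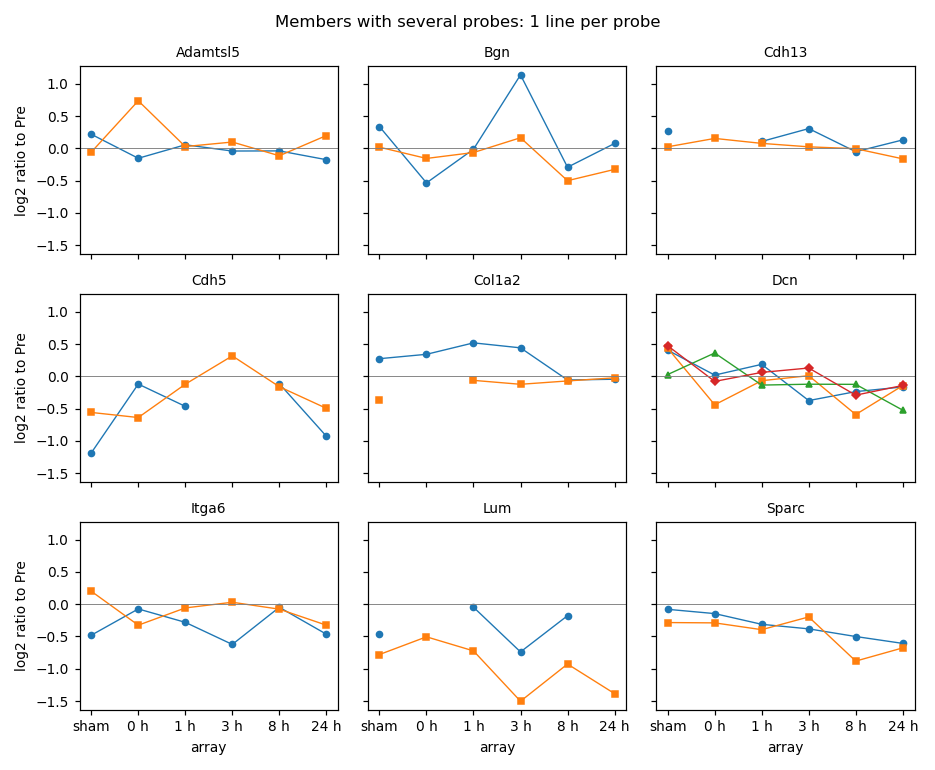
Log2 ratio to Pre (vertical axis) on each array (horizontal axis) for the 9 members with several probes, 1 line and colour for each probe, with a gap where a probe was not measured. The Dcn probes come together at 24 h except for a lower one, the Sparc probes are both lowest at 8 h and 24 h, and the Bgn probes part at 3 h.

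Thbs4, a thrombospondin of tendon and muscle attachment sites, was measured on 4 arrays, at 0.05 in sham, then -0.61, -0.62 and -1.22 at 1, 3 and 8 h. Sham was at the level of Pre and all 3 paced values were lower. The difference from sham was -1.27 at 8 h, 2.41-fold lower, on 1 probe. With scaled arrays the 1 h difference also passed 2-fold, at -1.14. Fbln1, a fibulin of elastic tissue, stood at -0.15 in sham and -0.84 at 3 h, and between -0.26 and -0.16 at the other measured times. Fbln5, needed for elastic fibre assembly, was not measured in sham and lay between -0.54 at 24 h and -0.04 at 1 h. Fbln2 ranged from -0.09 at 3 h to 0.36 in sham, and Postn, periostin, a glycoprotein of remodelling tissue, from -0.27 at 24 h to -0.06 at 1 h.

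Pdgfra is the receptor by which platelet-derived growth factor acts on fibroblasts and fibro-adipogenic progenitors. Of the 39 members with a value on all arrays, it alone was at least 2-fold below both sham and Pre, at 3 h. The same held at 8 h for Thbs4, measured on 4 arrays, with -1.27 against sham and -1.22 against Pre. The ratios of Pdgfra were 0.36 in sham, then -0.05, -0.21, -1.23, -0.34 and -0.55 at 0, 1, 3, 8 and 24 h. Sham was the 1 array above Pre and 3 h stood apart from the rest. The difference from sham at 3 h was -1.59, a 3.01-fold lower value, and those at the other times were -0.42, -0.57, -0.70 and -0.91. Across all genes, 0.189% met that double condition in the lower direction at 3 h. It rests on 1 probe. With scaled arrays the difference from sham was -1.12 and the ratio to Pre -0.89, so the double condition was no longer met.

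The 250 bases before the transcription start are shown for 3 members with low ratios after pacing (Pdgfra, Sparc and Thbs4), from RefSeq on build GRCm38.p6, which matched 31 of the 49 members. Capitals mark matches on either strand to any of 4 motifs. The TATA box was searched as TATAAA. The GC box was searched as GGGCGG. The AP-1 site was searched as TGANTCA. The E-box was searched as CANNTG. The arrays did not measure binding to these stretches. Of 32851 promoter windows of this length, 12.4% held a TATA box match, 32.7% a GC box, 6.75% an AP-1 site and 66.2% an E-box.
Pdgfra, chr5:75152001-75152250, plus strand: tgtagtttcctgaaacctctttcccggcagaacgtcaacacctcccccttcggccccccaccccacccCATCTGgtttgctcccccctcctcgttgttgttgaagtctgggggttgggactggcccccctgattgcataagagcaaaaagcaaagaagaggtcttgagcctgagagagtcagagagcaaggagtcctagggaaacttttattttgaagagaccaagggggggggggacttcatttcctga
Sparc, chr11:55420081-55420330, minus strand: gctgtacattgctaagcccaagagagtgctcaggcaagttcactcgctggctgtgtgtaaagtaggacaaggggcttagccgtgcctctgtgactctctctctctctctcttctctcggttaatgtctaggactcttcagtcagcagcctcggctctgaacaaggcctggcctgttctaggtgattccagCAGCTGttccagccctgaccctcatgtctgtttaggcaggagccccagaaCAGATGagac
Thbs4, chr13:92794819-92795068, minus strand: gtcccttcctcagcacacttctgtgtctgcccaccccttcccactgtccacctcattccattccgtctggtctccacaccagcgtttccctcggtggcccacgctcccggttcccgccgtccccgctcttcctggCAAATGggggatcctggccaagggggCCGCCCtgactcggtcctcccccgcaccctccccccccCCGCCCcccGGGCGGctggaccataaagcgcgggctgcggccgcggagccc
The Pdgfra window held 1 E-box match, that of Sparc 2, and that of Thbs4 1 E-box and 3 GC box matches. None of the 3 held a match to the TATA box or AP-1 letters as searched, and E-box letters are common in all promoters.

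Tgm2, tissue transglutaminase, which cross-links matrix proteins, was the member furthest above sham. It stood at -0.46 in sham, then 0.19, -0.04, -0.36, 0.42 and 0.95 at 0, 1, 3, 8 and 24 h. Sham was the lowest array and 24 h the highest. The difference from sham was 0.65, 0.42, 0.10, 0.89 and 1.41 at 0, 1, 3, 8 and 24 h, the last a 2.66-fold higher value on 1 probe, and 1.06 with scaled arrays. Against Pre the 24 h value stayed just under 2-fold.

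**Figure D4:**
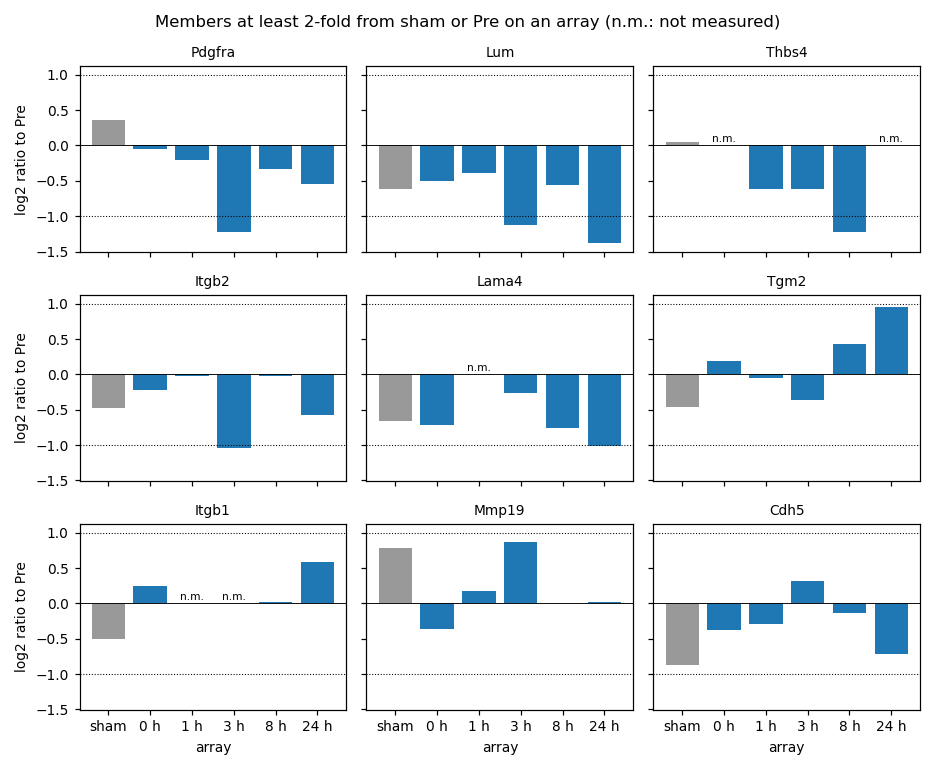
Log2 ratio to Pre (vertical axis, bars from 0) on the 6 arrays (horizontal axis, sham grey, paced arrays blue) for the 9 members at least 2-fold from sham or from Pre on an array. Dotted lines mark 2-fold from Pre and n.m. marks a value not measured; Pdgfra, Lum and Itgb2 pass the lower line at 3 h, Thbs4 at 8 h, and Lum and Lama4 at 24 h.

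The protease families had 12 members, all measured on every array, with a median difference from sham between -0.04 at 3 h and 0.11 at 1 h. Mmp19, a metalloproteinase that cuts basement membrane proteins, stood at 0.79 in sham and 0.86 at 3 h, and at -0.36, 0.18, 0.00 and 0.02 at 0 h, 1 h, 8 h and 24 h. The sham and 3 h arrays were high. The difference from sham was -1.15 at 0 h, 2.22-fold lower, with the sham value further from Pre than the 0 h value. With scaled arrays it was -0.91, below the threshold. Adam10, a sheddase that releases cell surface proteins, was -0.70 in sham and 0.17, -0.14, -0.09, -0.11 and 0.15 after pacing, which gave differences from sham of 0.87 at 0 h and 0.84 at 24 h. Here too the sham array was the one away from Pre.

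Adamts8 went the other way, from 0.26 in sham to -0.48 at 0 h and -0.37 at 8 h, differences of -0.74 and -0.63. Adam17, the sheddase of tumour necrosis factor, stood at -0.02 in sham, then -0.44, -0.67 and 0.01 at 0, 3 and 24 h. The 3 h array was its lowest, as it was for Adam11 at -0.75, Adamts5, an aggrecanase, at -0.81, and Mmp14, the membrane-bound activator of the gelatinase Mmp2, at -0.64. With scaled arrays Adam17 and Mmp14 were lowest at 0 h, at -0.48 and -0.57. Mmp24 stood at -0.59 at 3 h and -0.55 in sham. Mmp2, gelatinase A, stayed between -0.26 and 0.05 on all arrays, and Adam15 between -0.19 and 0.28. The ADAMTS-like Adamtsl2 ranged from -0.40 to -0.11. The 2 probes of Adamtsl5 disagreed at 0 h, with differences from sham of -0.37 and 0.80.

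Among the inhibitors, Timp1, the TIMP that is induced in injured tissue, stood at -0.68 in sham, then 0.21, -0.24, -0.37, 0.07 and -0.31 at 0, 1, 3, 8 and 24 h. Sham was lowest, and all paced arrays were above it, by 0.89 at 0 h and 0.75 at 8 h and by 0.31 to 0.44 at the other times, although with scaled arrays the 1 h difference was 0.01. Timp2 stood at -0.37 in sham and between -0.26 and -0.01 after pacing, but with scaled arrays its difference from sham at 8 h was -0.11. Timp4, a TIMP of heart and skeletal muscle, was above Pre in sham and through 8 h, at 0.09 to 0.45, and below it at 24 h, at -0.25, a difference from sham of -0.54.

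Among the integrins, Itgb1, the common beta chain of the laminin and fibronectin receptors, was measured on 4 arrays, at -0.51 in sham, then 0.24, 0.02 and 0.59 at 0, 8 and 24 h. Its difference from sham was 0.75, 0.52 and 1.10 at those times, the last 2.14-fold, or 0.80 and short of 2-fold with scaled arrays. Itga7, the laminin-binding alpha chain that pairs with it in muscle, stood at -0.06 in sham, then 0.10, 0.49, -0.14 and 0.71 at 1, 3, 8 and 24 h, a difference from sham of 0.78 at 24 h. Both were highest at 24 h, each on 1 probe. Itgb1bp2, melusin, was measured on 3 arrays, at -0.02 in sham, -0.59 at 3 h and -0.83 at 8 h.

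The 6 integrin and integrin-like members with a value on all arrays were all below sham at 24 h, beside 42.5% of all genes. Their median difference was -0.26. Outside these 6, Itgb1 and Itga7 were above sham at 24 h, by 1.10 and 0.78, and Itga3 differed by -0.08. Itga9 was 0.61 in sham and 0.42 at 3 h, and between -0.03 and 0.16 on the other arrays, with differences from sham of -0.65 at 8 h and -0.19 at 3 h. Itgb2, the beta chain of leukocyte integrins, stood at -0.47 in sham, then -0.22, -0.02, -1.03, -0.03 and -0.57 at 0, 1, 3, 8 and 24 h, with 3 h the lowest array, at -0.75 and short of 2-fold from Pre with scaled arrays. Itgb5 was 0.31 in sham and at 3 h, Itga5 was lowest at 24 h at -0.36, and Itgbl1 stayed between -0.14 and 0.22. Itga6 had a mean between -0.39 and -0.06, but its 2 probes were on opposite sides of Pre in sham, at -0.48 and 0.20. Itga3 was measured on 3 arrays, at -0.25 in sham, -0.01 at 1 h and -0.32 at 24 h.

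Of the cadherins, Cdh5, the adhesion molecule of endothelial junctions, stood at -0.87 in sham, then -0.38, -0.29, 0.32, -0.14 and -0.71 at 0, 1, 3, 8 and 24 h. Sham and 24 h were low and 3 h was high. Its gene mean was 2.28-fold above sham at 3 h, but only 1 of its 2 probes was measured there, and on that probe the difference was 0.88, below the threshold. With scaled arrays the gene mean differed by 0.80. The endothelial markers that are not members, 6 genes, had a median difference from sham of 0.03 at 3 h, with Icam2 at 0.87 and Eng at -0.20. Cdh13, a cadherin anchored in the outer membrane leaflet, stayed between -0.03 and 0.17.

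Genes that act with the members were taken from lists of related function. The 7 collagen synthesis and processing genes with values on all arrays were below Pre in 7 of 7 cases at 3 h and at 24 h, with medians of -0.38 and -0.33, and in 6 of 7 at 0 h, 1 h and 8 h. Over all genes, 48.2% to 51.5% were below Pre on the 6 arrays. In sham 6 of the 7 collagen processing genes were below Pre as well, with a median of -0.19. Against sham, the medians of the differences gene by gene were 0.15, 0.12, -0.22, 0.01 and -0.17 at 0, 1, 3, 8 and 24 h, with 4, 4, 3, 5 and 2 of the 7 above sham. None was 2-fold from sham. Pcolce, which speeds procollagen trimming, stood at -0.77 in sham and -0.33 at 24 h, and Serpinh1, the collagen chaperone HSP47, measured on 4 arrays, stood at -0.57 in sham, then -0.03, -0.58 and 0.01 at 1, 3 and 8 h. Other matrix and proteoglycan genes, 14 of them, had a median difference from sham of -0.18 at 24 h. Of these, 12 were below sham, beside 42.5% of all genes. Gpc3, a cell surface heparan sulphate proteoglycan, was 2-fold below sham at 0 h, 1 h, 8 h and 24 h, but stood at 1.36 in sham and between -0.20 and 0.81 after pacing. Hspg2, perlecan of the basement membrane, stood at -0.47 in sham, -0.87 at 8 h and -1.08 at 24 h, and Mfap5, a microfibril protein, at 0.29, -0.33 and -0.60.

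The 12 genes of TGF-beta signalling, the main inducer of matrix genes, had median differences from sham between -0.15 at 24 h and -0.02 at 3 h. Tgfbr3, the co-receptor betaglycan, was the 1 gene 2-fold below both sham and Pre, at -1.5 against Pre and -1.31 against sham at 24 h, and Smad3, a signal transducer of the pathway, stood at 0.87 against Pre at 24 h and 0.01 in sham. Ccn2, a matricellular target of the pathway, stayed between -0.17 and 0.09. Of 13 focal adhesion and costamere genes none was 2-fold from sham, and the median difference ran from -0.17 at 1 h to -0.02 at 24 h. Vcl, vinculin, stood at -0.27 in sham and between 0.10 and 0.41 after pacing, and Parvb, which binds integrin-linked kinase, stood at 1.81 in sham, 0.95 at 0 h and 2.47 at 24 h. Actn4, an actin cross-linker not measured at 24 h and so outside the 13, stood at 0.64 in sham and -0.26 at 0 h. Among 4 dystrophin complex genes, Sgcb, beta-sarcoglycan, stood at -0.80 in sham and 0.67 at 24 h, 2-fold above sham at 0 h, 3 h and 24 h. Dmd, dystrophin, another of the 4, stood at 0.12 in sham and -0.60 at 8 h. Sgca, alpha-sarcoglycan, not measured at 3 h and so outside the 4, stood at 0.63 and -0.27 on those arrays.

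Markers of the cells that make matrix were set beside these values. Of the 11 fibroblast markers, 4 are members (Col1a2, Dcn, Lum and Pdgfra). The other 7 had a median log2 ratio to Pre of 0.29 in sham, then -0.22, -0.05, 0.02, -0.36 and -0.36 at 0, 1, 3, 8 and 24 h. At 8 h 7 of 7 were below Pre. Below sham were 6, 5, 7, 6 and 6 of the 7 at 0, 1, 3, 8 and 24 h. Over all genes, 46.3%, 47.2%, 46.95%, 44.4% and 42.5% were. The 7 markers had median differences of -0.36, -0.30, -0.27, -0.52 and -0.38, so their median was below sham at every time. At 8 h the 7 differences from sham ran from -0.84 for Gsn, gelsolin, through -0.72 for Vim, a filament protein of mesenchymal cells, -0.62 for Mfap5 and -0.52 for both S100a4 and Tcf7l2, to -0.05 for Dpt and 0.00 for Cd34. Of the fibroblast markers that are members, Lum stood at 0.07 and Col1a2 at -0.02 against sham at that time. Dcn and Sparc were also below sham at every time, with Sparc at -0.04 at 0 h, and Bgn at all but 3 h. The members Col5a2 and Col6a3 and the collagen processing gene Pcolce went the other way, above sham at every time by 0.13 to 0.60. With scaled arrays, however, Col5a2 was below sham at 1 h. The part of fibroblast content in these values was not tested. Macrophage markers, 4 genes, had medians between -0.19 in sham and 0.12 at 0 h, and smooth muscle markers, 6 genes, between -0.40 at 3 h and -0.09 at 8 h. Among the latter Actg2 stood at 2.52 in sham and between -0.89 and -0.02 after pacing. In sham 3 of the 6 smooth muscle markers were above Pre and 3 below, with a median of -0.24. The 3 below were Myl9 at -1.18, Pdgfrb at -0.72 and Cnn1 at -0.59. The 4 adipocyte markers had a median of 0.20 in sham and -0.26 at 24 h.

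**Figure D5:**
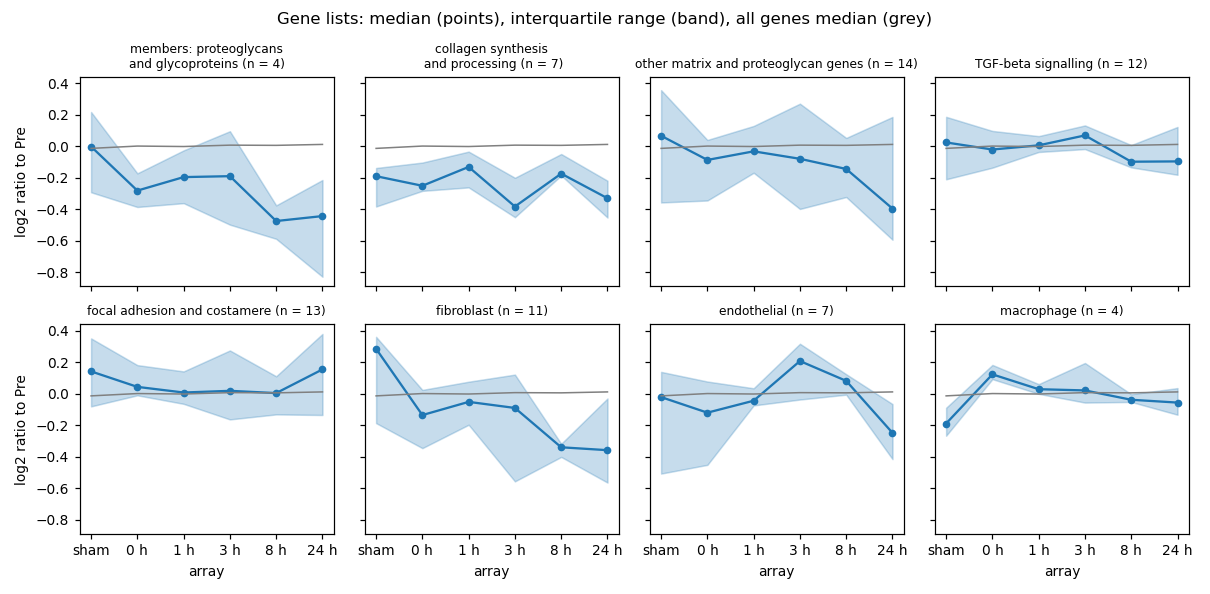
Median log2 ratio to Pre (points) and interquartile range (bands) of 8 gene lists on the 6 arrays, with the median over all genes in grey; n is the number of genes with a value on all arrays. The fibroblast marker median, 4 members included, was 0.29 in sham and -0.34 and -0.36 at 8 h and 24 h, and the proteoglycan and glycoprotein members were also lowest at those times.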

How the data were processed

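Per the labels, channel 1 of each of 6 arrays held muscle RNA and channel 2 the reference Pre. The authors deposited log10 ratios for 13872 probes. The sham array had 485 empty cells, and the paced arrays had no empty cell. The log base was read from 97 near-zero cells of rounding error, equal to the log10 of a number just above 1; how the arrays were scanned and normalised is not given in the sources used here. Ratios were converted to log2 with Python 3.11.15 and pandas 2.3.3. Exact zeros (201 to 1762 an array) and values repeated within a run of 289 probes (154 in sham, at most 8 elsewhere) were set to missing, and each array was centred on its median. Of the 13872 probes, 6609 had exactly 1 gene symbol, 284 several and 6979 none; current names came from the GRCm38.p6 gene table, where 6599 of the 6609 were found through Entrez. Spotted probes can bind close relatives, so family members are uncertain. Probes of a gene were averaged. Calls at 2-fold came with no test, since each group had 1 array. The calling steps were tested on simulated data. Genes were named by rule: every member 2-fold from sham or Pre, the 3 furthest from sham in each role group, members with 3 or more probes, and a fixed list of common matrix genes; other members are given for completeness. In related lists, genes 2-fold from both references and the furthest from sham are named, and some others, such as Ccn2, Hspg2, Vcl, Dmd and the single cell type markers, were picked after their values were seen. Members and lists were chosen with earlier results of these data known. Alternatives covered zeros kept, scaling, centring, centring by run, shared probes, probe medians, genes measured only on the arrays compared, and a 1.5-fold threshold.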

Additional observations from a re-analysis of the deposited data

How the results depend on the processing

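No paired analysis was possible because each group had 1 array. Leaving out a replicate was not possible for the same reason. The counts of members 2-fold from sham and from Pre, and the member medians, were computed under 7 other settings, except that probes shared by both arrays were used for the comparisons with sham alone. A count was taken as moved when it changed by more than 1.5 times, and a median when it changed by more than 0.1. No called value changed sign under any of them. Without centring, with each run of probes centred, and with probe medians, no count or median moved. With zeros and repeated values kept, 1 member was called against sham at 8 h, 2 at 24 h, and 1 against Pre at 8 h. The same 3 counts arose when genes needed values only on the arrays compared, with 2 against Pre at 24 h. With arrays scaled to a common spread, 0 members were called against sham at 0 h, 1 at 3 h, and 0 against Pre at 3 h, and the median differences from sham became -0.0798 at 1 h and -0.0755 at 8 h. On shared probes 1 member was called at 3 h, since Cdh5 stood at 0.88. At the added 1.5-fold threshold, 6, 2, 4, 9 and 6 of 39 members were called against sham at 0, 1, 3, 8 and 24 h, beside 23.6%, 11.1%, 10.8%, 17.6% and 22.1% of all genes. Against Pre 9 were called in sham and 14, 1 and 6 at 3, 8 and 24 h, beside 18.6%, 17.3%, 6.82% and 17.5%. Among single genes, scaling took Mmp19 at 0 h to -0.91, Cdh5 at 3 h to 0.80 and Itgb1 at 24 h to 0.80, below 2-fold, while Pdgfra against sham at 3 h stood at -1.12 and Tgm2 at 24 h at 1.06. It left Pdgfra at -0.89 against Pre at 3 h, so that the double condition was no longer met. Kept zeros put Lum at -0.70 against Pre at 24 h. The cause of these changes was not tested, other than for Lum, whose second probe was a zero there. Signal over background is unknown for every value.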
